A study of Mus musculus with 3 samples.

Results

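Pseudogene rows are the rows of a platelet gene count table that carry the Entrez number of a gene annotated as a pseudogene. They were chosen as all rows whose Entrez number has the RefSeq GRCm38 biotype pseudogene (143 rows) or transcribed pseudogene (103 rows), which gave 246 of the 9822 rows. The counts come from RNA-seq of purified blood platelets of male BALB/c mice, 20 weeks old, with the genotype Nxf1 wild type and no treatment named. There were 3 libraries in 1 group, and each was its own batch, so library, animal and batch cannot be told apart. The labels do not say that the libraries came from separate mice, so the spread between them may be technical.

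Most mouse pseudogenes are processed: a messenger RNA was reverse transcribed and inserted back into the genome without introns, and such a copy often lacks a promoter of its own. Unprocessed pseudogenes arise instead from duplication of a gene with its introns, and a few genes are called pseudogenes only because the reference strain carries a disabled allele. Platelets have no nucleus and hold the RNA that the megakaryocyte packed into them, which is rich in messages for the cytoskeleton and for granule proteins. A read from a messenger RNA can fit a young processed copy as well as the parent gene, so a count in a pseudogene row does not by itself show transcription of that copy. How reads that fit several places were counted is not given in the sources used here, and all values of near-identical copies below are uncertain for that reason.

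Selected copies among the 30 highest rows show how close row and parent can be, and windows of 90 bases from the parents' coding sequence are printed for them. Other high rows, such as Oaz1-ps and Morf4l1-ps1, are not shown in this way. Each window was the stretch without gaps that held most differences between parent and copies. The sequences are those of the GENCODE M21 transcripts on the GRCm38 reference, which is a C57BL/6J genome and not that of BALB/c. Letters in capitals mark bases that differ between parent and copy. In each set the first line is the parent, where a capital marks a base at which at least 1 copy differs, and in the other lines a capital marks a difference from the parent.

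The first set is Myl6, the essential light chain of non-muscle myosin II, with the 3 copies Gm5526, Gm10080 and Gm8894. The Myl6 window lies in 1 exon at chr10:128492621-128492710, on the minus strand. The copies lie on minus strands at chr1:45857632-45857721 (Gm5526), chr9:44375041-44375130 (Gm10080) and chr14:55420569-55420658 (Gm8894).
Myl6: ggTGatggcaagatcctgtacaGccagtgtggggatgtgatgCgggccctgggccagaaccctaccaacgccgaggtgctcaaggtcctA
Gm5526: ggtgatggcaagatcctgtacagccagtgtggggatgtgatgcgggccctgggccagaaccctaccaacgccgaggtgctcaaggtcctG
Gm10080: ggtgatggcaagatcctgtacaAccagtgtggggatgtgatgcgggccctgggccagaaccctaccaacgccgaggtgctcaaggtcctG
Gm8894: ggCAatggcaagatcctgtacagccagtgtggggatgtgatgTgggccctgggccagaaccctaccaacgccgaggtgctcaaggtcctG
Gm5526 differed from Myl6 at 1 base of this window, Gm10080 at 2 and Gm8894 at 4. At 1 position all 3 copies differed from Myl6.

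The second set is Gng5, a gamma subunit of heterotrimeric G proteins, with the copies Gm3150 and Gng5-ps. The Gng5 window starts at the start codon and spans an intron at chr3:146499940-146503268 on the plus strand. The copies hold the same stretch without the intron, on plus strands at chr15:72913357-72913446 (Gm3150) and chr16:22295027-22295116 (Gng5-ps).
Gng5: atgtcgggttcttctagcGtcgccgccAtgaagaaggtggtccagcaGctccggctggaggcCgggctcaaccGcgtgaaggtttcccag
Gm3150: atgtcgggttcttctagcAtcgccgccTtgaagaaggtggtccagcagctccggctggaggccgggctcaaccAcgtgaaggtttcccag
Gng5-ps: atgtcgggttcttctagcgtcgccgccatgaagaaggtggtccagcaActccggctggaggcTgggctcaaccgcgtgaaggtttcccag
Gm3150 differed from Gng5 at 3 bases and Gng5-ps at 2, at different positions.

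The third set holds Hmga2, an architectural chromatin protein that binds AT-rich DNA, with Hmga2-ps1. The Hmga2 window begins at the start codon, in 1 exon at chr10:120475974-120476063 on the minus strand. That of Hmga2-ps1 lies at chr1:176835724-176835813 on the plus strand.
Hmga2: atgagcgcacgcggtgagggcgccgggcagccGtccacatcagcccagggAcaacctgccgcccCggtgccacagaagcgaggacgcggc
Hmga2-ps1: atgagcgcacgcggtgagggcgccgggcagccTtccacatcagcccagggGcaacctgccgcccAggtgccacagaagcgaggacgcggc
The 2 sequences differed at 3 bases.

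The fourth set shows copies with 1 difference or none. The ribosomal protein gene Rpl30 has its window at chr15:34442706-34443039 on the minus strand, across an intron, and its copy Gm12191 at chr11:49678962-49679051 on the minus strand. H2afz, which encodes the histone variant H2A.Z, has the first 90 bases of its coding sequence at chr3:137864694-137865528 on the plus strand, across an intron. The copy Gm8203 holds them without the intron at chr6:116173737-116173826 on the plus strand.
Rpl30: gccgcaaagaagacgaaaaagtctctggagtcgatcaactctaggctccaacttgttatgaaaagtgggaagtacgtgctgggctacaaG
Gm12191: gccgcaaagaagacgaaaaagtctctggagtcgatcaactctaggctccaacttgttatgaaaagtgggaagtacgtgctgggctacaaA
H2afz and Gm8203: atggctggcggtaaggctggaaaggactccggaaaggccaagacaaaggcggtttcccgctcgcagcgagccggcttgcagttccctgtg
Gm12191 differed from Rpl30 at 1 base, and Gm8203 was identical to H2afz in this window as in the whole of its 387 aligned bases.

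Levels are given as CPM, the counts of a row per 1000000 counts of its library, and the library totals were 26974129, 25189231 and 26111636 in replicates 1, 2 and 3. A count of 0 allows up to 3 counts, or 0.111 to 0.119 CPM, and every pseudogene row had at least 4 counts in every library. All 12 platelet marker genes looked up, Pf4 and Itga2b among them, were detected, with summed levels of 67544 to 71592 CPM. Red cell markers summed to 49252 CPM in replicate 1 and to 5524 and 7100 CPM in replicates 2 and 3, so replicate 1 stands apart in red cell RNA. Of the red cell list, 10 of 12 genes were in the tables and all of these were detected. Leukocyte markers summed to 1334, 1566 and 1438 CPM, of which Lyz2 gave 1286, 1515 and 1361 CPM, and 10 of 12 were in the tables. These are bulk libraries, so fewer cells of a type and less RNA per cell cannot be told apart.

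Pseudogene rows held a small, steady part of the counts. Their share was 1.221% of all counts in replicate 1, with an exact 95% interval from 1.217 to 1.225. It was 1.238% in replicate 2, between 1.234 and 1.243, and 1.266% in replicate 3, between 1.262 and 1.271. The mean was 1.24% ± 0.0230 (SD, n = 3). The intervals cover counting error only, and they did not overlap, so the libraries differed by more than counting error. Rows of biotype pseudogene held 63.9% ± 0.942 of the members' counts and transcribed pseudogenes 36.1% ± 0.942.

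Detection of pseudogene rows was near that of all rows. Of the 246 rows, 187 (76.0%) reached 1 CPM in all 3 libraries, beside 77.7% of all rows and 78.1% of protein-coding rows, in tables that hold only genes with counts. Their median level was 4.26 CPM, beside 3.86 CPM for all rows, and 19 rows (7.72%) averaged 100 CPM or more, beside 7.95% of all rows. Divided by gene length the medians were further apart, with 5.51 against 1.49 RPKM (CPM for each 1000 bases of the row's length), and median lengths were 781 and 2781 bases. Rows of biotype pseudogene had a median of 5.72 CPM and transcribed pseudogenes one of 3.55 CPM.

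Few rows carried most of these counts. The highest 4 rows, Gm5526, Hmga2-ps1, Gm8894 and Gm10080, held 53.9% ± 0.721 (SD, n = 3) of the members' counts. The highest 10 rows held 69.7% and the highest 30 held 86.2%, which left 13.8% to the other 216 rows. Among the highest 30, the coefficient of variation between libraries had a median of 5.84%, from 0.762% in Morf4l1-ps1 to 16.3% in Gm8942.

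**Figure D1:**
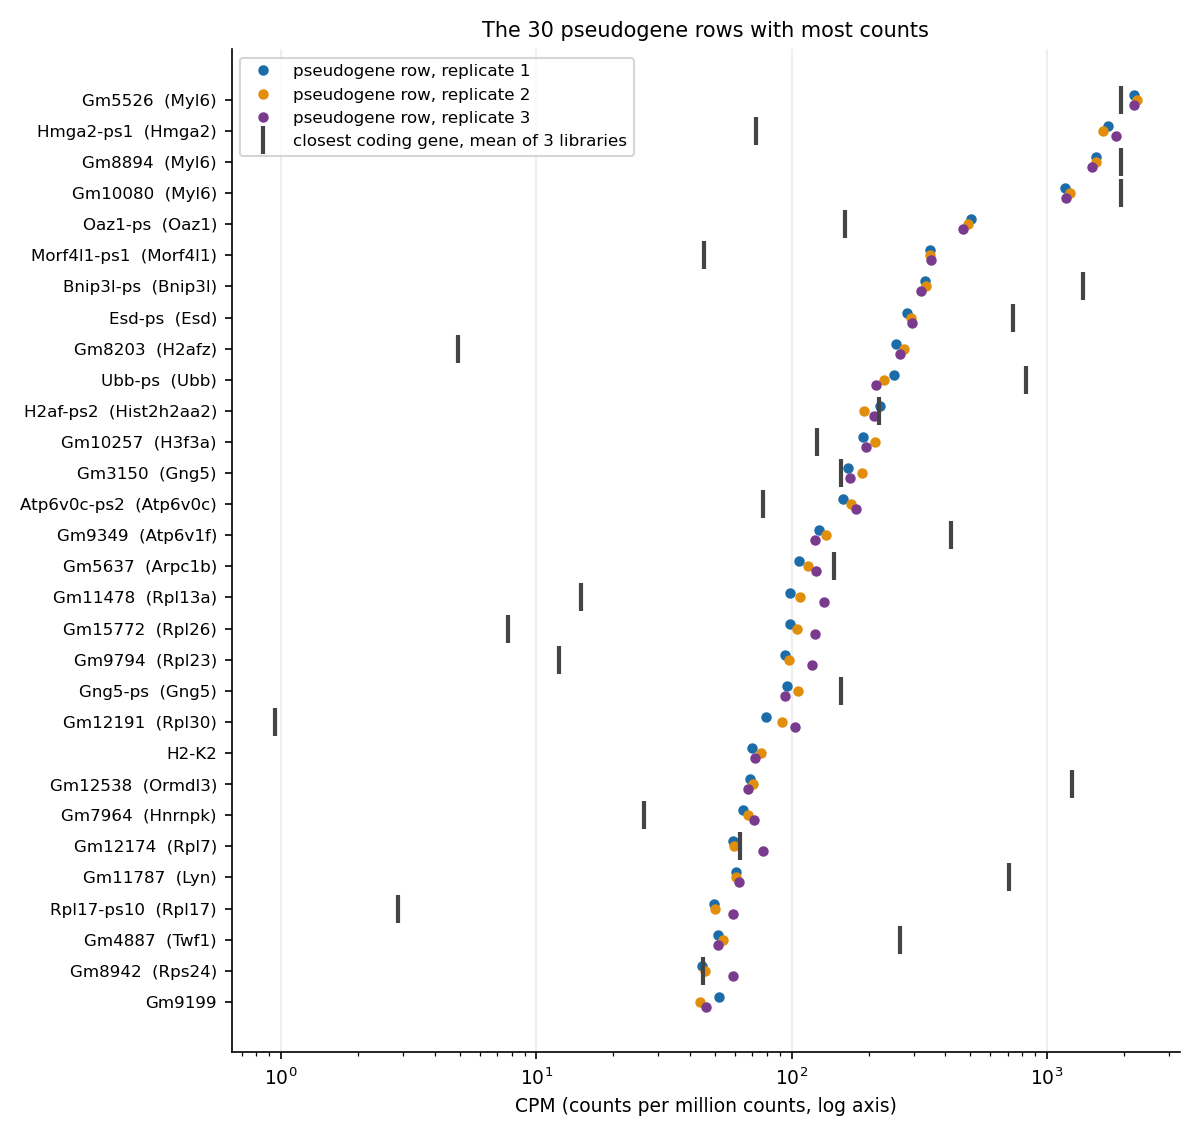
Levels of the 30 pseudogene rows with the highest mean CPM, on a log axis; points are the 3 libraries, and the bar is the mean of the closest coding gene named in parentheses, where the sequence rule gave one. The 4 highest rows lie above 1000 CPM, and the bars lie on both sides of the points, from Rpl30 at 0.943 CPM to Myl6 at 1943 CPM.

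Parents were found by name and by sequence. By symbol or synonym 69 rows had a named parent, such as Oaz1 for Oaz1-ps, and for 59 of these rows the parent, of 52 genes, was in the tables. For the sequence step, 239 of the 246 rows were first matched to a GENCODE M21 gene, 21 by Entrez number, 204 by symbol and 14 by position. GENCODE annotated 203 of these as processed pseudogenes, 18 as unprocessed and 6 as polymorphic. It listed 5 others as protein-coding and 7 under other types. For 201 rows a coding gene aligned at 90% identity or more over 80% or more of the transcript, which gave 166 parents, and 178 of these rows had their parent in the tables. Of the 62 rows with both kinds of parent, 58 had the same gene. A fold between row and parent below is the mean over libraries of the log2 ratio of counts, with 2 added to each count, turned back to a linear scale.

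Closeness in sequence was described for the 201 rows with a parent by sequence, whose identity was 90% or more by the rule. Within that limit identity to the parent had a median of 98.3% (90.6 to 100). Of the 201 rows, 75 were at 99% or more, and 12 were identical over the alignment. The other rows had no parent by this rule and are not part of these values. Of all windows of 100 bases in a row's transcript, a median of 26.7% occurred unchanged in another gene's transcripts. Genes that overlap the row's own position were left out of this search and of that for windows of 50 bases. In 81 of 239 rows at least 50% of such windows did, and these rows held 42.8% of the members' CPM. In 46 rows no window of 100 bases occurred in the transcripts searched, and those rows held 16.1%. Hmga2-ps1, whose row is longer than the transcript compared, held 14.1% and the other 45 rows 1.97%.

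The copies of Myl6 came first. Gm5526 had 2196, 2243 and 2185 CPM in replicates 1, 2 and 3. Gm8894 had 1561, 1558 and 1501 CPM, and Gm10080 had 1171, 1231 and 1182 CPM. Myl6 itself had 1928, 1994 and 1906 CPM, so Gm5526 lay above its parent in every library and the other copies below it. Together the 3 rows held 71.8% ± 0.147 (SD, n = 3) of the counts of Myl6 and its copies, and 39.8% ± 1.19 of all pseudogene counts. Per length the row of Gm5526 was 1.09-fold above Myl6, that of Gm8894 1.09-fold below and that of Gm10080 1.68-fold below. Identity to Myl6 was 99.27% for Gm5526, 99.09% for Gm10080 and 96.96% for Gm8894, so the order of levels was not the order of identity.

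Other cytoskeletal copies were far lower. Gm6517, closest to the regulatory light chain gene Myl12a, averaged 20.8 CPM ± 0.881 (SD, n = 3), 4.74-fold below its parent. Gm6682, closest to the alpha-tubulin gene Tuba1c, averaged 12.1 CPM ± 0.110 and lay 1.26-fold above it. Tubb2a-ps2, named for the beta-tubulin gene Tubb2a, had 9.12, 8.22 and 11.0 CPM, while Tubb2a had 538, 499 and 561 CPM. By sequence its closest gene was Tubb2b, at 97.39% identity, which was 3.77-fold above it. Gm5637 is closest to Arpc1b, a subunit of the Arp2/3 complex that nucleates branched actin. It averaged 116 CPM ± 9.07, and Arpc1b was 1.27-fold higher. Gm4887, closest to Twf1 (twinfilin, which binds actin monomers), averaged 52.0 CPM ± 1.42, 5.08-fold below Twf1.

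Hmga2-ps1 was the row with the second most counts. It had 1735, 1662 and 1862 CPM, while Hmga2 had 74.7, 76.0 and 66.5 CPM, so the row was 24.2-fold above its parent, and 66.9-fold per length. The libraries of row and parent did not overlap. Identity of the transcript to Hmga2 was 94.98%, the longest identical stretch was 85 bases, and none of its windows of 100 bases occurred in another gene's transcripts. Genes that overlap the copy's position were not searched. The row was 1510 bases long in the tables and the GENCODE transcript 339 bases, so most of the counted row was not compared here. The copy lies inside Sdccag8, a centrosomal protein gene, which averaged 23.6 CPM ± 2.81. Whether reads of that host gene or of neighbouring sequence entered the row was not tested.

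Rows of other chromatin genes ranged from far above to far below their parents. Gm8203 had 257, 276 and 266 CPM, beside 4.67, 5.0 and 5.09 CPM for H2afz. The row was 53.3-fold higher, although its 387-base transcript occurs unchanged in H2afz. The row was 881 bases long in the tables, and the rest of it was not compared. It lies inside Tmcc1, which averaged 4.04 CPM. Gm10257, closest to the replacement histone gene H3f3a, had 190, 212 and 195 CPM and was 1.58-fold above it. Gm6485, closest to H3f3b, which encodes the same histone H3.3, averaged 28.6 CPM ± 1.55 against 0.679 CPM ± 0.103. H2af-ps2 had 222, 192 and 210 CPM beside 230, 207 and 220 CPM for Hist2h2aa2, a core histone H2A gene. In each library the row was just below this parent, and per length it was 9.32-fold below. Gm12271, a second copy of H3f3a at 93.05% identity, averaged 0.615 CPM, 182-fold below the parent.

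The copies of Gng5 lay on both sides of it by CPM. Gm3150 had 166, 188 and 169 CPM and Gng5-ps had 95.8, 106 and 94.0 CPM, beside 149, 168 and 151 CPM for Gng5. All 3 rows were highest in replicate 2, and the copies held 63.6% ± 0.0696 of the counts. The length of both copies in the tables was 207 bases, that of Gng5 535 bases, and per length the copies were 2.88-fold and 1.63-fold above Gng5. Gm11787 matched Lyn, a Src-family kinase that acts below platelet receptors, at 98.76% identity and is an unprocessed copy. It had 60.6, 60.5 and 61.9 CPM, 11.6-fold below Lyn.

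Copies of housekeeping genes fell on both sides. Oaz1-ps had 504, 491 and 470 CPM, 3.01-fold above Oaz1, the antizyme that restrains polyamine synthesis. Morf4l1-ps1 had 346, 348 and 352 CPM, 7.67-fold above Morf4l1, a subunit of histone acetyltransferase complexes. The row of Morf4l1-ps1 was 5159 bases long and lies inside Lpp (16.9 CPM), and per length it was 2.95-fold above Morf4l1. The part of this row outside the GENCODE transcript was not compared. Atp6v0c-ps2 averaged 169 CPM ± 10.05 and was 2.19-fold above Atp6v0c, the proton-conducting subunit of the vacuolar ATPase. In contrast Gm9349 averaged 129 CPM ± 6.46, 3.26-fold below Atp6v1f, another subunit of that pump.

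Below their parents in every library were also Bnip3l-ps, Esd-ps and Ubb-ps. Bnip3l-ps averaged 329 CPM ± 7.96, 4.20-fold below Bnip3l, a receptor for the removal of mitochondria. Per length the 2 were close, with the row 1.06-fold above. Esd-ps averaged 291 CPM ± 6.18, 2.53-fold below the esterase gene Esd. Ubb-ps had 252, 229 and 214 CPM, 3.56-fold below the polyubiquitin gene Ubb, which had 882, 804 and 787 CPM. Row and parent of this pair were both highest in replicate 1. Gm12538 averaged 68.7 CPM ± 1.67, 18.2-fold below Ormdl3, a regulator of sphingolipid synthesis, at 92.18% identity.

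Copies of genes for RNA-binding proteins and translation factors were below some parents and above others. Of the 8 RNA-binding rows, 6 were below the parent in every library and 2 above. Of the 7 translation factor rows, 4 were below, 2 above and 1 neither. Gm7964, closest to Hnrnpk, was above it, with 64.6, 67.2 and 71.1 CPM against 26.1, 26.2 and 27 CPM. Gm12696 averaged 37.4 CPM ± 0.130, 4.84-fold below Hnrnpc. Gm5471 had the lowest ratio of all pairs by sequence, with 0.704, 1.63 and 1.15 CPM, 922-fold below Eif1, which helps the ribosome choose a start codon. Gm6155, another Eif1 copy, averaged 15.7 CPM ± 1.04, and Eif1 was 68.8-fold higher. The Eef1a1 copies Gm6548 and Gm9512 averaged 10.5 and 9.75 CPM, 53.7-fold and 58.1-fold below this elongation factor gene. In the other direction Gm5088 averaged 5.97 CPM ± 1.18, 1.97-fold above the poly(A)-binding protein gene Pabpc4, its closest gene by sequence. The parent of Gm5088 by synonym was Pabpc4l, which had no row in the tables. Gm2223 and Gm9892 were close to the initiation factor genes Eif2s3x and Eif2s2, at 1.07-fold and 1.02-fold.

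Other pairs at the low end held abundant parents too. Gm6929 averaged 2.06 CPM beside 535 CPM for Cdc42, a small GTPase of actin control. The 2 copies of Ppia (cyclophilin A), E030024N20Rik and Gm9234, averaged 20.3 and 1.32 CPM, 16.4-fold and 240-fold below it. Gm17511 averaged 0.964 CPM ± 0.293 (SD, n = 3), 95.5-fold below the ribosomal protein gene Rplp1. Among the pairs named by symbol, Ftl1-ps2 had the lowest ratio, with 6.97, 6.55 and 8.16 CPM, 468-fold below the ferritin light chain gene Ftl1. By sequence its closest gene was Ftl1-ps1, at 98.18% identity, for which no row was found in the tables.

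Ribosomal protein genes had more copies among the rows than any other class that was looked up. There were 58 such rows from 39 parents, 34 of them in the tables, and the rows summed to 1026, 1093 and 1336 CPM in replicates 1, 2 and 3. Their 34 parents summed to 524, 573 and 715 CPM, and the 53 rows whose parent was in the tables held 64.3% ± 0.593 (SD, n = 3) of the counts of these families. All 81 ribosomal protein coding genes in the tables summed to 1891, 2053 and 2401 CPM, and set against all of them the 58 rows held 35.2% ± 0.505. Of the 53 pairs, 25 had the copy above the parent in every library, 23 below and 5 neither.

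The highest of these rows were far above parents at low levels. Gm12191 had 79.3, 91.6 and 103 CPM beside 1.00, 0.794 and 1.03 CPM for Rpl30, a 89.6-fold difference and the highest ratio among the pairs by sequence. Gm15772 had 98.7, 105 and 123 CPM, 13.9-fold above Rpl26. Gm9794 had 93.8, 97.7 and 120 CPM, 8.41-fold above Rpl23. These copies were at 99.54% identity or more to their parents. Gm11478 had 98.2, 107 and 134 CPM, 7.54-fold above Rpl13a at 98.00% identity, and it lies inside Vmp1, which averaged 171 CPM.

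Further down, 3 copies of Rpl17 averaged 52.7 CPM (Rpl17-ps10), 20.8 CPM (Rpl17-ps9) and 13.6 CPM (Gm10362), against 2.86 CPM for Rpl17. Gm9385 averaged 35.4 CPM ± 6.35, 22.2-fold above Rpl24, and Rps27a-ps3 averaged 38.2 CPM ± 4.69, 8.0-fold above Rps27a. Gm12174 had 58.7, 59.5 and 77.1 CPM, close to 56.1, 56.3 and 75.7 CPM for Rpl7. In the other direction the Rps15 copies Gm5781 and Gm6867 were 6.13-fold and 9.82-fold below Rps15, at 95.01% and 91.82% identity.

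**Figure D2:**
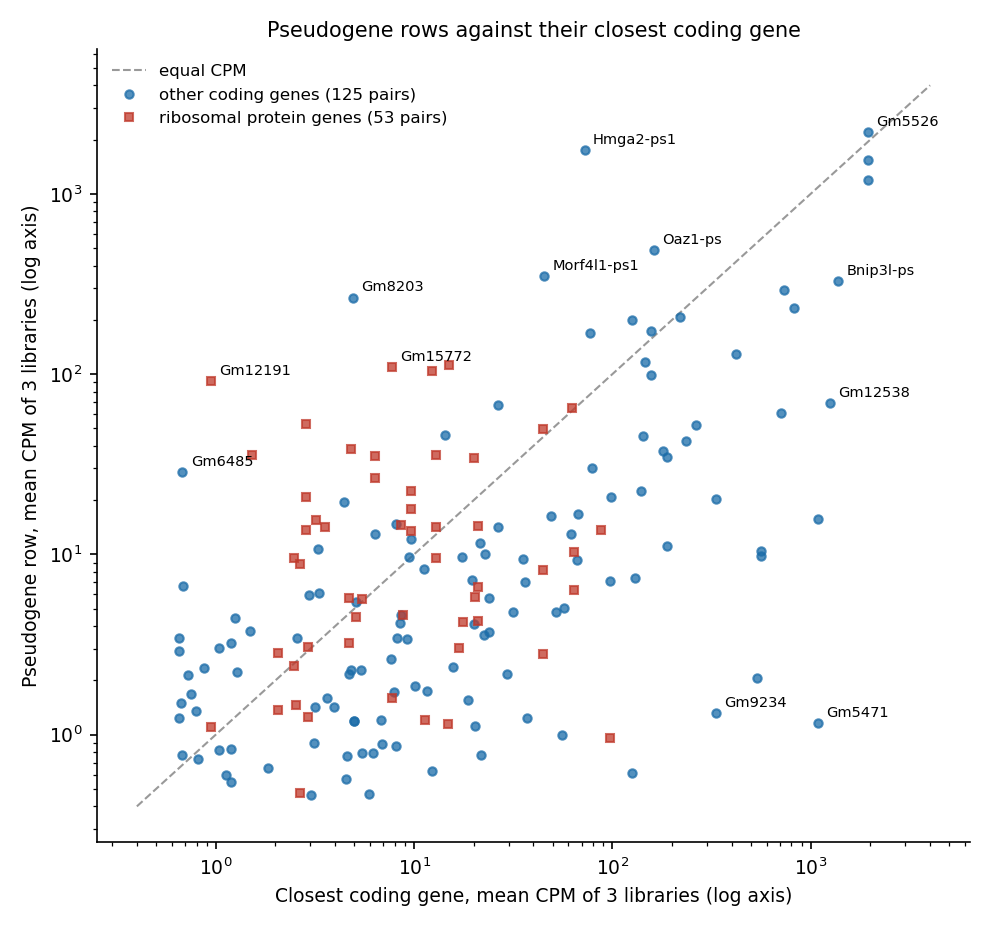
Mean CPM of each pseudogene row against its closest coding gene, both on log axes, for the 178 pairs by sequence with both rows in the tables; squares are ribosomal protein genes and the dashed line marks equal CPM. Rows such as Gm12191, Gm8203 and Hmga2-ps1 lie far above the line and Gm5471 and Gm9234 far below it.

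Over all pairs, rows below the parent were more frequent. By name, the row was below the parent in every library in 32 of 59 pairs, above in 23 and neither in 4, with a median log2 ratio of -0.56. By sequence, 110 of 178 rows were below, 59 above and 9 neither, with a median of -1.09. Divided by gene length the order by name turned, with 23 rows below and 33 above and a median of 0.70, and by sequence it came near balance, with 88 below and 80 above. With 3 libraries an exact sign-flip test of one pair cannot go below p = 0.25, so no pair was tested.

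**Figure D3:**
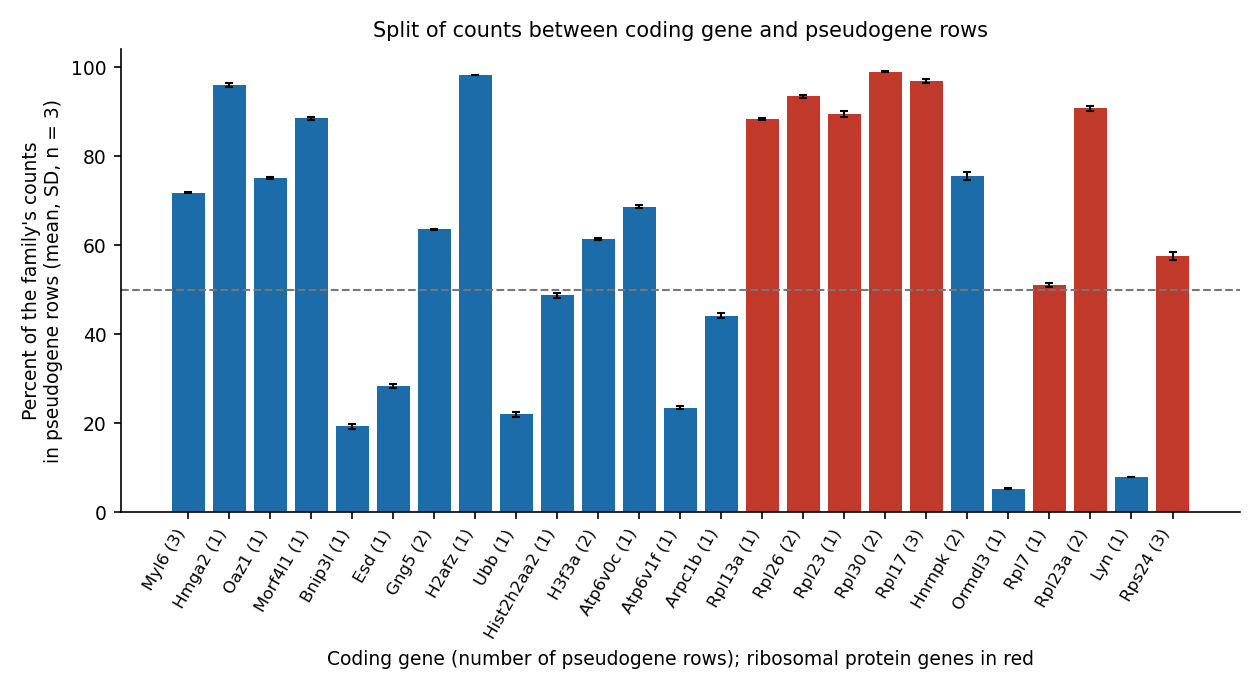
Percent of the counts of a coding gene and its pseudogene rows that was in the pseudogene rows, for the 25 families with most pseudogene counts and the parent in the tables; bars are means and whiskers SD over 3 libraries. The split runs from 5.20% for Ormdl3 to 98.98% for Rpl30, and the whiskers are short.

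The split between row and parent differed little between libraries in most families. Of 145 families with the parent in the tables, 59 had more counts in the pseudogene rows than in the coding gene, and in 10 families the rows held over 90%. The SD of this share over libraries had a median of 1.27 percentage points, and it was 0.147 for Myl6, 0.0571 for H2afz and 0.0696 for Gng5. The highest was 16.04 points for Bcl7c and its copy Gm3219, both near 1 CPM, at 54.1%, 23.3% and 30.9%. For Hmga2 the share was 95.87%, 95.63% and 96.55%, and the exact interval of replicate 3 did not overlap the others. Families with several rows were 29 in number, and 6 had 3 rows or more.

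The ratio of row to parent was higher for copies nearer to the parent. Rows above their parent in every library were 12% of 25 pairs at 90 to 95% identity and 3.57% of 28 pairs at 95 to 97%. They were 25.4% of 63 pairs at 97 to 99% and 62.9% of 62 pairs at 99% or more. The median log2 ratio in these ranges was -2.88, -2.28, -1.04 and 0.86. Across the 178 pairs the log2 ratio had Pearson's r = 0.45 and Spearman's rho = 0.53 with identity, and r = -0.54 with the parent's log2 CPM. These correlations describe pairs that share libraries and, in part, a parent, and the ratio contains the parent's level. The parents' median level in the same ranges was 20.2, 33.2, 10.1 and 5.70 CPM, and the parts of identity and parent level in the ratio were not tested.

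**Figure D4:**
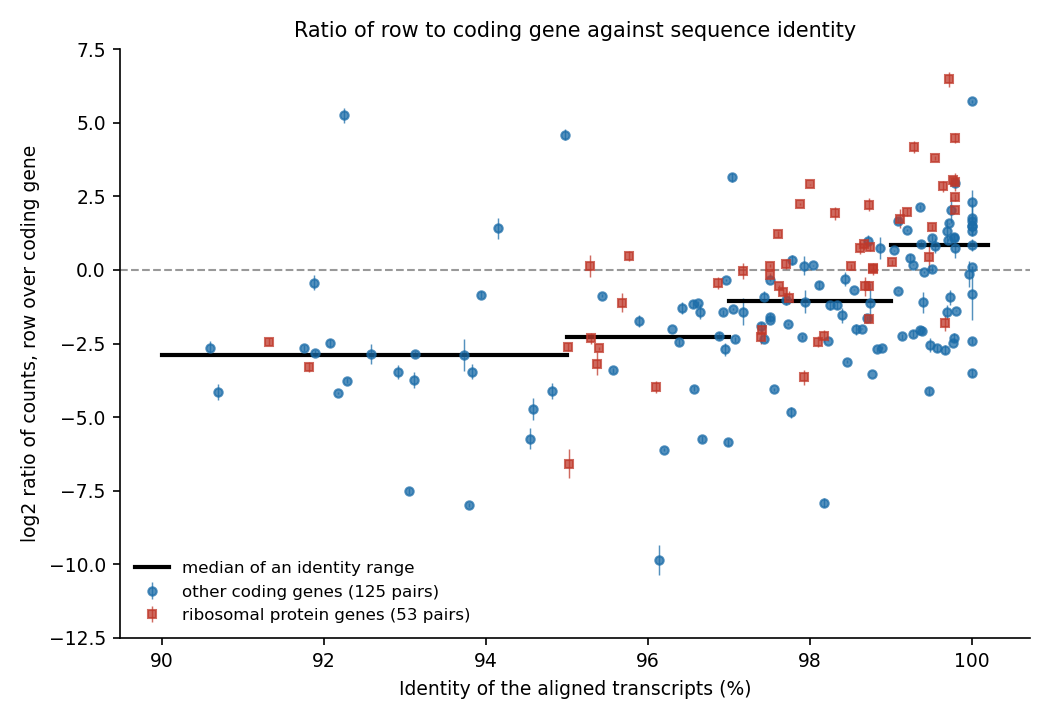
The log2 ratio of counts of pseudogene row over coding gene (mean and SD of 3 libraries) against the identity of the aligned transcripts in percent, for 178 pairs, with black lines at the median of 4 identity ranges. The medians rise from -2.88 at 90 to 95% to 0.86 at 99% or more, with Gm6485 and Hmga2-ps1 high at low identity.

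Some parents were not found in the tables while their copy was. A parent by sequence was looked up under the first of its Entrez numbers, so a row under another number would be missed. Gm12070, at 99.90% identity to the glycolytic gene Gapdh, averaged 29.7 CPM, and a second copy, Gm6981, averaged 1.22 CPM at 94.25% identity. Rpl13-ps6 had 37.3, 41.5 and 52.8 CPM at 99.53% identity to Rpl13. Gm8210, whose windows of 100 bases all occur in other genes, averaged 14.7 CPM and is closest to Rpl29. In all, 23 of the 201 rows had a parent for which no row was found. Besides, 186 rows of the tables, with 0.995% of counts, had no match in the RefSeq table.

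A few rows were not annotated as copies of a messenger RNA. H2-Ea encodes the alpha chain of the class II molecule I-E, whose allele is disabled in C57BL/6 and active in BALB/c. It had 36.1, 35.3 and 52.6 CPM, and none of its windows of 50 bases occurred in another gene. Its partner chain H2-Eb1 had 29.7, 29.3 and 45.6 CPM and H2-Aa, of the other class II molecule, 77.3, 82.2 and 127 CPM. All 3 genes were highest in replicate 3 by CPM, as were 68.7% of all rows. The B-cell markers Cd79a (12, 12.8 and 21.9 CPM) and Ms4a1 (7.12, 5.95 and 11.3 CPM) were highest there too. The part of B cells in the level of H2-Ea was not tested.

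Class I genes were present as well. H2-K2 and H2-Bl were paired with a coding gene by a synonym only, and neither pair came from the sequence rule. H2-K2 had 70.1, 76.1 and 72.0 CPM, 11.2-fold below H2-K1, and H2-Bl had 15.2, 17.5 and 15.7 CPM, 53.4-fold below H2-D1. Their sequence in BALB/c differs from the reference, and that difference was not part of the comparison. Ppp4r1l-ps, a duplicate of a phosphatase regulatory subunit gene, had 29.0, 31.4 and 29.5 CPM with no window of 50 bases shared. Gm9199, which had no GENCODE match, had 51.8, 43.9 and 46.3 CPM. Its position, chr14:73025603-73026890, overlaps that of Cysltr2, a leukotriene receptor gene at 65.4 CPM ± 3.58, so reads of both cannot be told apart without the strand. In all, 10 rows had no window of 50 bases in another gene, and they held 0.652% of the members' CPM.

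Position was a further difference among the rows. Of the 246 rows, 61 lay inside a coding gene, with a median of 9.50 CPM, and the 185 others had a median of 3.74 CPM. The part of the host genes in this difference was not tested.

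Between libraries ribosomal protein rows differed from the other pseudogene rows. By CPM, 154 of 246 pseudogene rows (62.6%) were highest in replicate 3, beside 68.7% of all rows, whose median log2 difference of replicate 3 from the others was 0.26. After scaling by trimmed mean of M values (TMM, factors 0.949, 0.955 and 1.10), 40.2% of pseudogene rows and 43.8% of all rows were highest there. Ribosomal protein rows leaned most to replicate 3, with 52 of 58 by CPM and a median fold of 1.27. Their parents did so in 29 of 34 cases, with a median fold of 1.26. After TMM scaling 39 of 58 rows did, with a median fold of 1.10, and 18 of 34 parents, with one of 1.09. The 188 other pseudogene rows were highest in replicate 3 in 54.3% of cases by CPM and in 31.9% after TMM scaling.

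No pseudogene row was called for a spread between libraries above the trend. By edgeR's quasi-likelihood dispersion with Benjamini-Hochberg adjustment, 0 of 206 rows tested were called, beside 22 of 8289 rows in all (0.265%). At an unadjusted p under 0.05 there were 2, beside 391 of all rows, and by DESeq2's dispersion outliers 1, Gm4184, beside 49. Gm4184 is named by a synonym for Sec61g, a subunit of the protein translocation channel. It had 33.1, 21.8 and 19.2 CPM, with an adjusted p of 0.357 in edgeR, and Sec61g had 2.11, 1.87 and 1.8 CPM. Both rows were highest in replicate 1, the library with most red cell RNA, and the part of red cells in this was not tested.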

How the data were processed

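RNA sequencing was analysed in 3 libraries of wild-type platelets, grouped by the genotype label. The authors deposited raw counts per Entrez gene with a gene length, 1 table per library. Per the submitters' processing notes, CASAVA 1.8.2, Subread, featureCounts and edgeR 3.11.5 were used with mouse build mm10. Not given in the sources used here: the annotation, the strand setting and how multi-mapping reads were counted. Per the labels' protocols, the library kit was Illumina TruSeq RNA v2.

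CPM were computed on the total of counts. Biotypes and coordinates came from the RefSeq table for GRCm38. The members and all lists were chosen with earlier results of these data known. Parents were taken from symbols ending in -ps and, since the table used here held no full gene names, from synonyms; this replacement was chosen after seeing the data. Parents by sequence, also added after seeing the data, came from BLAST+ 2.17.0 of GENCODE M21 transcripts (e-value 1e-20), at 90% identity or more over 80% or more of the transcript.

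Spread was tested with edgeR 4.0.16 in R 4.3.3 (intercept, TMM, rows with a mean of 1 CPM or more) by the upper tail of F, with Benjamini-Hochberg adjustment over 8289 rows; DESeq2 was an alternative. The method was tested on simulated data. Named rows were the 30 highest, the 5 highest transcribed pseudogenes, rows called in the spread test, the 5 highest and 5 lowest ratios, the 3 highest of each parent class and the parents of these; a few further rows were named after their values were seen. A class rule on symbols put Cdc42 with immune surface genes, and that class is not reported. Intervals are exact Clopper-Pearson at 95% and cover counting error only. Python 3.11.15, pandas 2.3.3, NumPy 2.4.6, SciPy 1.17.1 and matplotlib 3.10.9 were used. Some rows and marker genes are not reported here.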

Additional observations from a re-analysis of the deposited data

How the results depend on the processing

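No paired analysis was possible because all 3 libraries belong to 1 group; this concerns pairing of samples between groups, and row and parent were compared within each library. The share of counts in pseudogene rows was 1.24%. It was 0.794% for the biotype pseudogene alone, 1.62% with the mitochondrial ribosomal RNA rows left out of the total, 1.02% without Gm5526 and 0.748% without the 3 rows closest to Myl6, an alternative chosen after seeing the data; these settings change which rows or which total are counted. Leaving out 1 library in turn gave 1.23% to 1.25%. Pseudogene rows detected numbered 187 at 1 CPM, 227 at 0.5 CPM and 107 at 5 CPM, and 190 to 195 with 1 library left out. Detection over all rows is given here at 1 CPM only. The median level of pseudogene rows was 4.26 CPM, and 5.72 CPM for the biotype pseudogene alone. Over all pseudogene rows it was 5.51 on the RPKM scale, and 3.91 to 4.596 CPM with 1 library left out. Rows called in the spread test numbered 0 under 4 other edgeR settings and in 3 fits that left out 1 library each, and 1 by DESeq2's dispersion outliers. Over all rows the calls went from 22 to 2 without replicate 1. Pairs with the row below the named parent in every library numbered 32, and 110 among pairs by sequence, a larger set that was added after seeing the data. With 1 library left out they numbered 32 to 33. Depth limits the rows near 1 CPM, where detection depends most on the threshold.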
